A study of Mus musculus with 40 samples.

Results

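Trdv4 and Trdv5 are 2 of the V segments of the mouse T cell receptor delta locus (Trd), and Trdj1 and Trdj2 are the J segments that the deposited delta tables list. These 4 segments were taken by name, as rows TRDV4 and TRDV5 and columns TRDJ1 and TRDJ2, out of 156 V and J segments listed in the delta or alpha tables of the series. All 4 were listed in every delta library. In the tables of the T cell receptor alpha locus (Tcra), both V rows were listed in replicate 2 of each genotype and in neither table of replicate 1, which held 19085 counts in EACBE-/- and 10694 in EACBE+/+. Those replicate 1 tables listed 0 rows of any Trdv segment, so the absence was not particular to Trdv4 and Trdv5. Trdv1, also unlisted there, held 1.23% of Tcra counts in EACBE-/- replicate 2 and 1.53% in EACBE+/+ replicate 2. Why the replicates list different rows was not tested.

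A delta chain is assembled in the thymus by joining a V segment through D segments to a J segment, and the product is spliced to the constant region Trdc. The Trd locus lies inside Tcra, some V segments serve both chains, and a join of an upstream V segment to a Traj segment deletes the Trd locus between them. Trdv4 is the V segment of the invariant delta chain of dendritic epidermal T cells, a skin population of mice that arises in the fetal thymus and carries Trdj2. Trdv5 lies on the other side of the D and J segments, in the opposite orientation, and joins them by inversion instead of deletion.

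Delta and alpha transcripts were copied from total thymus RNA of C57BL/6 mice aged 4 to 8 weeks by 5′ RACE, which reads V and J segments without V-specific primers. Mice that lack a CTCF binding site at the Tcra enhancer Ea (genotype EACBE-/-) were compared with mice that carry it (EACBE+/+, wild type), with 2 libraries of each genotype per locus and no treatment stated for these mice. The series title asks for the role of that site in Tcra rearrangement. The anti-CD3 injection in the protocols is described for Rag-deficient mice, which gave other libraries of the series that were not analysed here. The tables hold only receptor segments, so neither the genotype nor the thymocyte label can be checked in them.

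The delta tables held 5615 and 47158 counts in EACBE-/- replicates 1 and 2, and 1744 and 28093 in EACBE+/+ replicates 1 and 2. Replicate 2 also listed more V rows, 103 in EACBE-/- and 88 in EACBE+/+, against 22 and 18 in replicate 1. The rows that replicate 1 lacked held 9.49% of replicate 2 counts in EACBE-/- and 8.81% in EACBE+/+. The labels do not tie the replicates to separate mice, so p-values measure the spread between libraries, which may be technical. The labels also leave unsaid whether reads or unique receptors were counted, and intervals (95%, Wilson) and detection limits cover counting error only.

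Positions are those of RefSeq on GRCm38.p6, the assembly behind mm10, where all 4 segments matched by symbol. Trdv4 occupies chromosome 14 from 54075004 to 54075515 and is annotated as a V segment. It is the annotated Trdv segment nearest to Trdd1 on the upstream side, 37952 bases away, and 47622 bases from Trdj1. Trdj1 spans 54123138 to 54123188, 896 bases after Trdd2. Trdj2 spans 54136779 to 54136837, 13590 bases beyond Trdj1. Trdv5 spans 54148662 to 54149201, which is 2553 bases beyond Trdc, 25473 bases from Trdj1 and 11824 bases from Trdj2. By distance Trdv5 is thus nearer to either J segment than any upstream Trdv segment is, and nearer to Trdj2 than to Trdj1. The constant region Trac of the alpha chain, downstream of which Ea lies, starts 71319 bases beyond the end of Trdv5.

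The first question was how much the delta repertoire used each V segment. Trdv5 was among the 3 most used V segments in every library, and Trdv4, the nearest upstream segment, was among the rare ones. Trdv5 took 16.9% and 21.0% of counts in EACBE-/- replicates 1 and 2, and 12.6% and 12.7% in EACBE+/+ replicates 1 and 2. It ranked 2 and 1 among V rows in the EACBE-/- tables, and 2 and 3 in the EACBE+/+ tables. Trdv4 took 0.178% and 0.214% of counts in EACBE-/- replicates 1 and 2, and 0.172% and 0.110% in EACBE+/+ replicates 1 and 2. Its rank was 14 of 22 and 25 of 103 rows in EACBE-/-, and 14 of 18 and 35 of 88 rows in EACBE+/+.

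Trdv5 thus had 95.1 and 98.3 counts for each Trdv4 count in EACBE-/-, and 73.3 and 115 in EACBE+/+. In bulk RNA, fewer cells that use a segment and less receptor RNA per cell cannot be told apart. In absolute counts, Trdv4 rested on 10 and 101 counts in EACBE-/- and on 3 and 31 in EACBE+/+, while Trdv5 had 951 and 9926 against 220 and 3559.

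**Figure D1:**
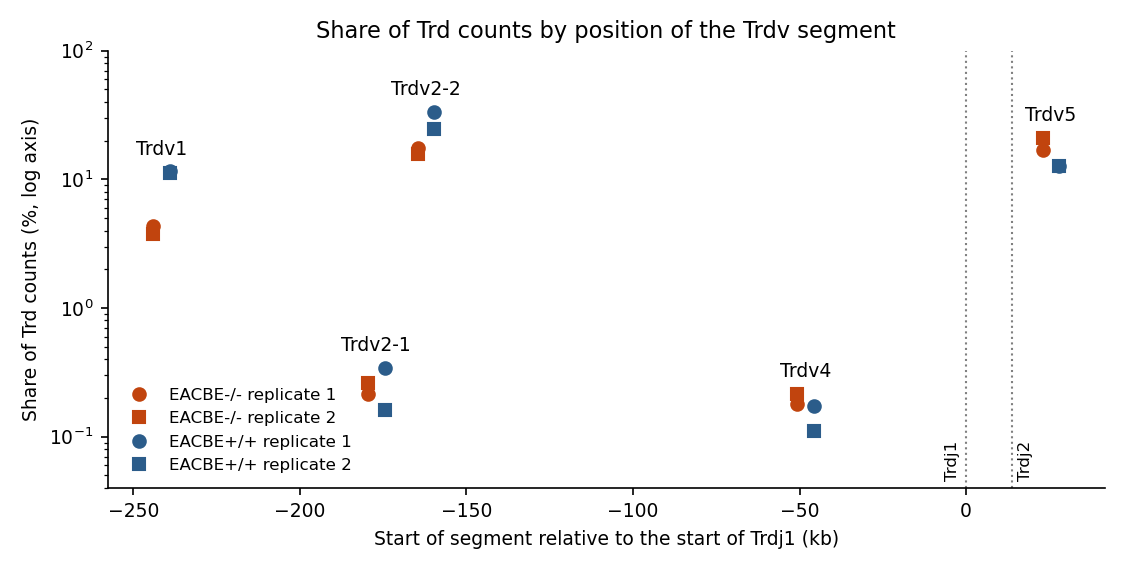
Share of Trd counts (log axis, %) of the 5 listed Trdv segments against the start of the segment relative to the start of Trdj1 (kb, RefSeq). Each point is 1 library, with EACBE-/- drawn slightly left and EACBE+/+ slightly right of the true position. Trdv5, at 25.5 kb, lies between 12.6% and 21.0%, and Trdv4, at -48.1 kb, between 0.110% and 0.214%.

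Position alone did not order the 5 listed Trdv segments by use. Trdv2-2, an upstream segment 161.5 kb from Trdj1, took 17.6% and 15.7% of EACBE-/- counts and 33.5% and 24.9% of EACBE+/+ counts. Trdv1, 240.9 kb from Trdj1, took 4.31% and 3.79% in EACBE-/- and 11.6% and 11.3% in EACBE+/+. Both were above Trdv4 in all 4 libraries although Trdv4 is closer to Trdj1. Trdv2-1, 176.5 kb from Trdj1, was rare like Trdv4, at 0.214% and 0.261% in EACBE-/- and 0.344% and 0.160% in EACBE+/+. It was also above Trdv4 in all 4 libraries, but with overlapping intervals in each. Trdv5 lay below Trdv2-2 in EACBE-/- replicate 1 and in both EACBE+/+ libraries and above it in EACBE-/- replicate 2. It lay above Trdv1 in all 4 libraries, by 3.93 and 5.55 times in EACBE-/-, and by 1.09 and 1.13 times in EACBE+/+. In EACBE+/+ replicate 1 the intervals of Trdv5 (11.1 to 14.3%) and Trdv1 (10.2 to 13.2%) overlapped.

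The second question was whether loss of the CTCF site moved the use of the V segments. Trdv5 averaged 18.99% ± 2.91 in EACBE-/- and 12.64% ± 0.0382 in EACBE+/+ (SD, n = 2 each), a 1.5-fold difference. Within the 18 rows listed in all 4 tables its share was 16.9% and 23.6% in EACBE-/-, and 12.6% and 13.9% in EACBE+/+. On either total both EACBE-/- libraries lay above both EACBE+/+ libraries, and, over the whole table, the intervals did not overlap (16.0 to 17.9% and 20.7 to 21.4%, against 11.1 to 14.3% and 12.3 to 13.1%). In edgeR's quasi-likelihood test over the V rows, Trdv5 had a log2 change of 0.59 (SE 0.18, unadjusted p = 0.0354, adjusted p = 0.248) and did not pass the threshold of 0.05.

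Trdv4 averaged 0.196% ± 0.0255 in EACBE-/- and 0.141% ± 0.0436 in EACBE+/+ (SD, n = 2 each), a 1.39-fold difference. Its groups also did not overlap, but the gap was small, 0.178% in the lower EACBE-/- library against 0.172% in the higher EACBE+/+ library, which rests on 3 counts. Within replicate 1 the intervals overlapped (0.0968 to 0.328% in EACBE-/- and 0.0585 to 0.505% in EACBE+/+). Within replicate 2 they did not (0.176 to 0.260% in EACBE-/- and 0.0778 to 0.157% in EACBE+/+). The log2 change of Trdv4 was 0.52 (SE 0.98, adjusted p = 0.997 in edgeR), and it went to 0.19 without EACBE+/+ replicate 2 and to 0.83 without EACBE+/+ replicate 1.

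**Figure D2:**
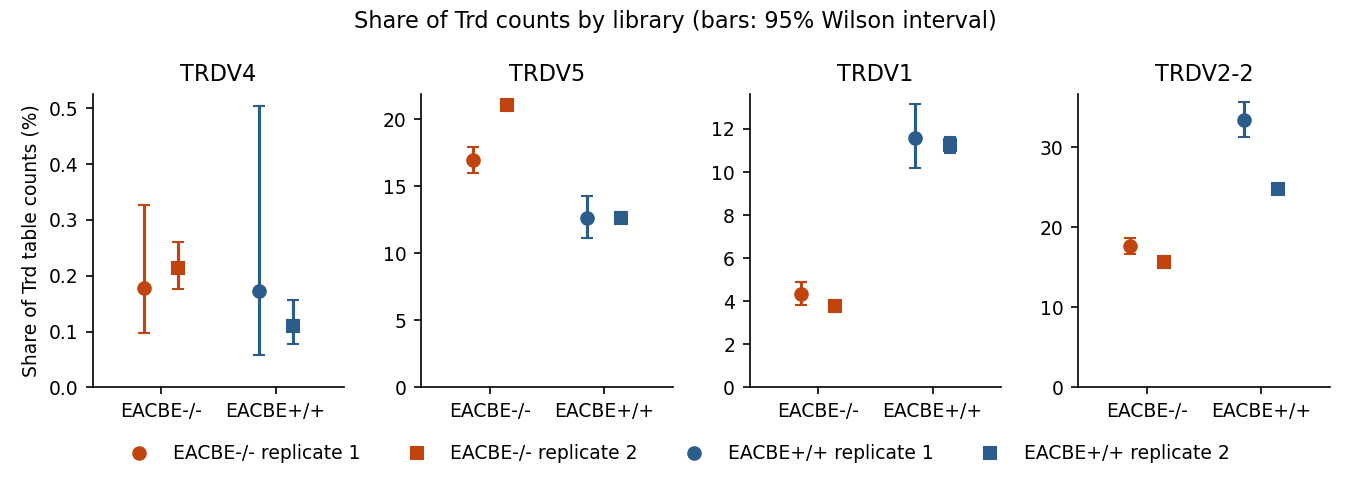
Share of Trd counts (%, linear axes from 0) of Trdv4 and Trdv5, and of Trdv1 and Trdv2-2 for comparison, with 1 point per library and bars for the 95% Wilson interval. Trdv5 lies at 16.9% and 21.0% in EACBE-/- and at 12.6% and 12.7% in EACBE+/+, and the intervals of Trdv4 overlap within replicate 1.

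Of 21 V rows tested, 0 passed at an adjusted p of 0.05 in edgeR (0.0% of rows) and 0 in DESeq2. At an unadjusted p below 0.05, edgeR gave 3 rows (14.3%), which were Trdv5, Trdv1 and Trdv2-2, and DESeq2 gave 1, Trdv1. In DESeq2 Trdv5 had a log2 change of 0.47 (SE 0.60, unadjusted p = 0.432, adjusted p = 0.980). Of the 3 in edgeR, only Trdv5 was higher in EACBE-/- (1 row of 21, 4.76%). Trdv1 had a log2 change of -1.50 and Trdv2-2 one of -0.81, the lowest 2 of the 21, with adjusted p = 0.0609 and 0.218 in edgeR. Trdv5 ranked 4 and Trdv4 ranked 6 of 21 by log2 change, beside a median of 0.16 over all rows. Groups did not overlap for 6 of the 21 rows (28.6%), and 4 of these were higher in EACBE-/- (19.0%), Trdv4 and Trdv5 among them. With the replicate number added to the edgeR fit as a block, 3 of the 21 rows passed, with Trdv1 among them and neither member.

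**Figure D3:**
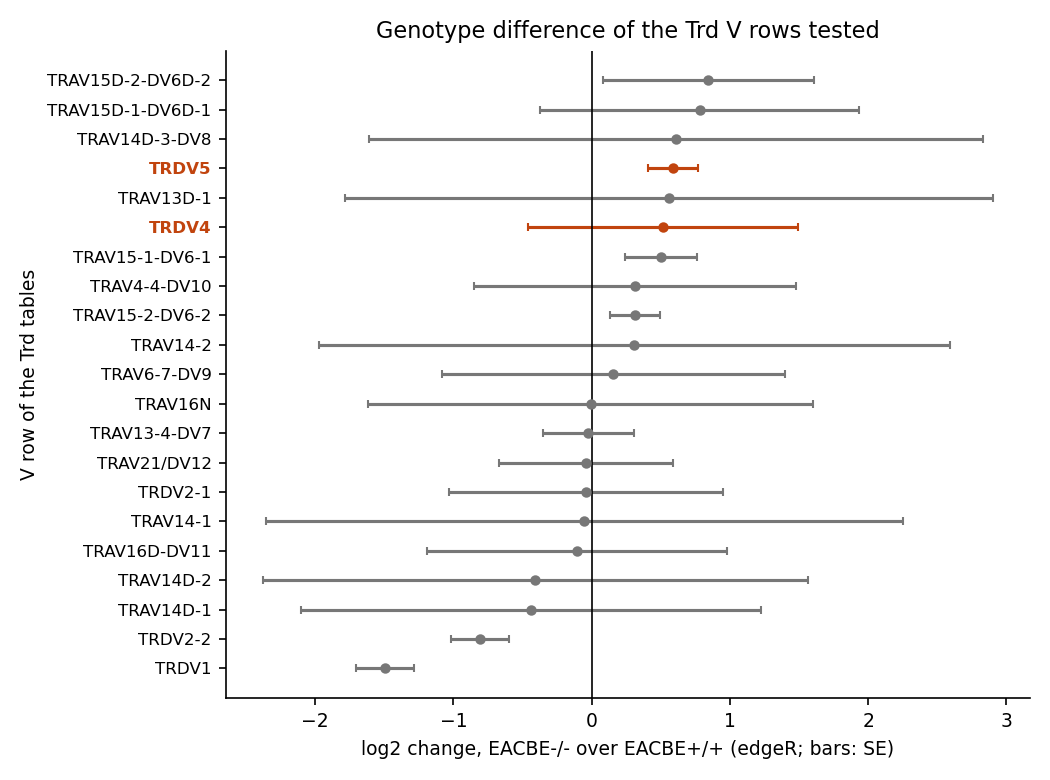
Log2 change of EACBE-/- over EACBE+/+ for the 21 V rows tested in edgeR, with SE as bars and Trdv4 and Trdv5 in red. Trdv5 sits at 0.59 with a narrow bar (SE 0.18), Trdv4 at 0.52 with a wide one (SE 0.98), and Trdv1 and Trdv2-2 are at the bottom.

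By list, 3 of the 5 dedicated Trdv rows had an unadjusted p below 0.05 and 0 passed after adjustment, with a median log2 change of -0.04. In the 10 rows named as shared between Trav and Trdv, 0 had an unadjusted p below 0.05, and the median log2 change was 0.31. In the 6 other Trav rows 0 did, and the median was -0.03. The dedicated Trdv rows together held 39.3% and 41.0% of EACBE-/- counts and 58.2% and 49.1% of EACBE+/+ counts.

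The shares of a table add up to a fixed total, so no row's share is independent of the others. Trdv1 and Trdv2-2 had lower shares in both EACBE-/- libraries, and their part in the higher share of Trdv5 was not tested. Measured within the 5 dedicated Trdv rows, Trdv5 held 43.1% and 51.4% in EACBE-/-, against 21.7% and 25.8% in EACBE+/+. Its ratio to Trdv2-2 was 0.960 and 1.34 in EACBE-/-, and 0.377 and 0.510 in EACBE+/+. Trdv4 held 0.453% and 0.523% of the dedicated rows in EACBE-/-, and 0.296% and 0.225% in EACBE+/+. None of these shares and ratios overlapped between the genotypes, and the exact permutation test (two-sided) gave p = 0.333 for each, the smallest that 2 libraries against 2 allow. Within the dedicated rows Trdv1 and Trdv2-2 did not overlap either, both lower in EACBE-/-. Of the 5 rows only Trdv2-1 overlapped, so the lack of overlap was not particular to Trdv4 and Trdv5.

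The ratio of Trdv4 to Trdv5 does not depend on which other rows a table lists. On the log2 scale it was -6.57 and -6.62 in EACBE-/-, and -6.20 and -6.84 in EACBE+/+. The EACBE-/- values lay between the EACBE+/+ ones, with a difference of means of -0.08 (exact permutation test, two-sided, p = 1), which is smaller than the EACBE+/+ spread (SD 0.46, n = 2).

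The third question was the choice of J segment. Trdj1, which lies next to Trdd2, took nearly all joins, and Trdj2 took about 1 in 100. Trdj2 held 0.873% and 0.831% of counts in EACBE-/- replicates 1 and 2, and 0.917% and 0.990% in EACBE+/+ replicates 1 and 2. Trdj1 held 99.1% and 99.2% in EACBE-/-, and 99.1% and 99.0% in EACBE+/+. Trdj2 counts numbered 49 and 392 in EACBE-/- and 16 and 278 in EACBE+/+.

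Trdj2 averaged 0.852% ± 0.0293 in EACBE-/- and 0.954% ± 0.0510 in EACBE+/+ (SD, n = 2 each). The groups did not overlap, with a difference of -0.10 percentage points, and the exact permutation test (two-sided) could not go below p = 0.333, the value it gave. The counting intervals overlapped within both replicates (0.661 to 1.15% in EACBE-/- and 0.565 to 1.49% in EACBE+/+ for replicate 1, 0.753 to 0.917% and 0.880 to 1.11% for replicate 2). With 2 libraries per genotype this test could not pass whatever the size of the difference. Trdj2 occurred with 11 and 34 V rows in EACBE-/-, and with 6 and 31 in EACBE+/+.

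Trdv4 and Trdv5 lay on opposite sides of the whole table in J use. Trdv4 joined Trdj2 in 2 of 10 and 3 of 101 counts in EACBE-/-, or 20% and 2.97%. In EACBE+/+ it did so in 1 of 3 and 3 of 31 counts, or 33.3% and 9.68%. Trdv5, which lies nearer to Trdj2 than to Trdj1, joined Trdj2 in 2 of 951 and 27 of 9926 counts in EACBE-/-, or 0.210% and 0.272%. In EACBE+/+ it did so in 0 of 220 and 5 of 3559 counts. At a limit of 3 counts, 0 of 220 allows a share of up to 1.36%, and the 5 of 3559 are 0.140%.

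Trdv4 was above Trdv5 in Trdj2 use in 4 of 4 libraries, by 16.3 percentage points on average (SD 13.3). By library this was 19.8 and 2.70 points in EACBE-/- and 33.3 and 9.54 points in EACBE+/+, with the larger values in replicate 1. The exact sign-flip permutation test over the 4 libraries (two-sided) gave p = 0.125, the smallest it can give. Within each library the intervals of Trdv4 and Trdv5 did not overlap. Those of Trdv4 were 5.67 to 51.0% and 1.02 to 8.37% in EACBE-/-, and 6.15 to 79.2% and 3.35 to 24.9% in EACBE+/+. Those of Trdv5 were 0.0577 to 0.764% and 0.187 to 0.395% in EACBE-/-, and 0 to 1.72% and 0.0600 to 0.328% in EACBE+/+. For 0 of 220 the Wilson interval reaches higher than the limit of 3 counts, and it was used for this comparison. All Trdv4 joins to Trdj2 came to 9 counts over the 4 libraries, so the size of the difference is poorly fixed.

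**Figure D4:**
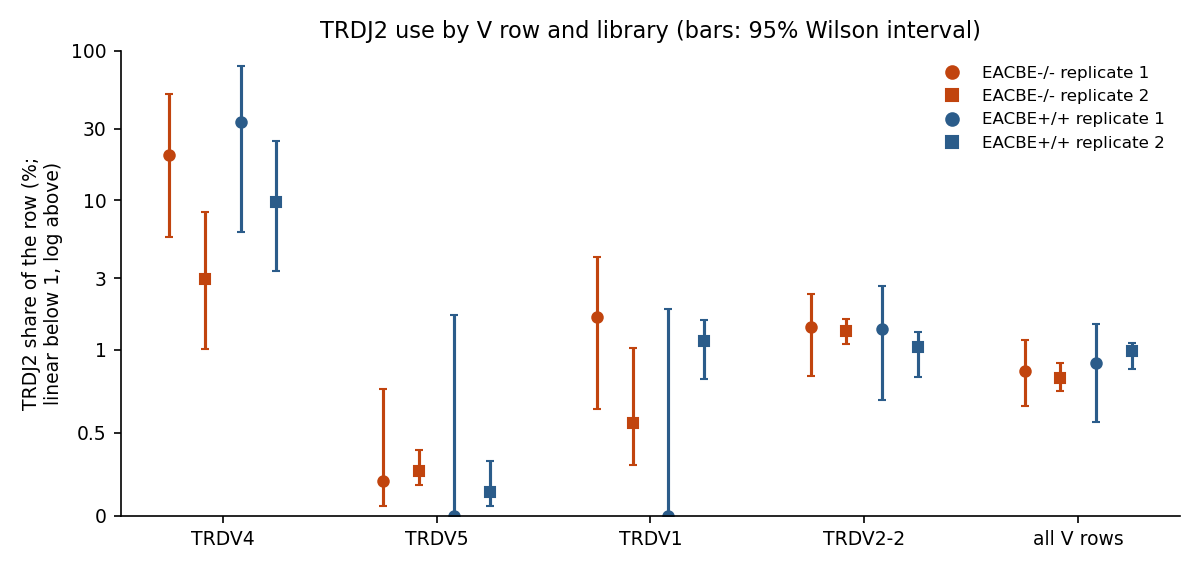
Percent of a V row's counts that use Trdj2 (linear below 1%, log above), for Trdv4, Trdv5, Trdv1, Trdv2-2 and all V rows together, with 1 point per library and 95% Wilson intervals. Trdv4 lies between 2.97% and 33.3%, Trdv5 between 0% and 0.272%, and all rows together between 0.831% and 0.990%.

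Against the rest of each table, Trdv5 used Trdj2 less in 4 of 4 libraries. Without Trdv5 the tables had Trdj2 in 1.01% and 0.980% of EACBE-/- counts and 1.05% and 1.11% of EACBE+/+ counts, and Trdv5 differed from these by -0.80 and -0.71 percentage points in EACBE-/- and by -1.05 and -0.97 in EACBE+/+. The mean difference was -0.88 points (SD 0.16), with p = 0.125 in the exact sign-flip permutation test (two-sided). The intervals of Trdv5 lay below those of the other rows in both replicate 2 libraries (0.187 to 0.395% against 0.885 to 1.09% in EACBE-/-, 0.0600 to 0.328% against 0.989 to 1.25% in EACBE+/+). In replicate 1 they overlapped narrowly in EACBE-/- (0.0577 to 0.764% against 0.759 to 1.34%) and widely in EACBE+/+ (0 to 1.72% against 0.647 to 1.70%). The comparisons of Trdv5 and of Trdv4 with the rest of the table were chosen after the values were seen.

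Among V rows with at least 20 counts, Trdv5 had the lowest Trdj2 use of the 10 rows in EACBE-/- replicate 1. In EACBE-/- replicate 2, 32 of 46 such rows had any Trdj2 count, 31 of these were higher than Trdv5, and 14 rows without any were lower. In EACBE+/+ replicate 2, 28 of 36 had any, 27 were higher and 8 without any were lower. In a row with few counts, 1 Trdj2 count alone gives a higher share than that of Trdv5. These ranks thus depend on row depth and say little about such rows. The row nearest above Trdv5 was TRAV15-1-DV6-1 in EACBE-/- replicate 1 (0.332%) and in EACBE+/+ replicate 2 (0.325%). In EACBE-/- replicate 2 it was TRAV13D-1, at 0.302% from 1 of 331 counts. In EACBE+/+ replicate 1, 4 of 9 such rows had no Trdj2 count, Trdv5 among them.

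Trdv4 reached 20 counts in replicate 2 alone. There it had the highest Trdj2 use of 36 rows in EACBE+/+, from 3 of 31 counts (interval 3.35 to 24.9%). The next row, TRAV14-1, had 7.55% from 4 of 53 counts (interval 2.97 to 17.9%), and these intervals overlapped. In EACBE-/- replicate 2, 8 of 46 rows were higher, up to 6.45% for TRAV12-3, from 2 of 31 counts. The better counted TRAV14-2 was among them, at 5.02% from 13 of 259 counts (interval 2.96 to 8.40%). In EACBE+/+ replicate 2 it had 5.79%, from 7 of 121 counts. High Trdj2 use was thus not particular to Trdv4. Against the rest of each table Trdv4 was above in 4 of 4 libraries, by 15.6 percentage points on average (SD 13.2, exact sign-flip permutation p = 0.125, two-sided, the smallest possible). By library this was 19.2 and 2.14 points in EACBE-/- and 32.5 and 8.70 points in EACBE+/+. The mean thus rests largely on the replicate 1 libraries, with 10 and 3 Trdv4 counts. The rest of the tables had 0.839% and 0.827% in EACBE-/-, and 0.862% and 0.980% in EACBE+/+.

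Rows most like each member in Trdj2 use were ranked by the mean absolute difference over the 4 libraries, among rows with at least 20 counts in each. For Trdv5 these were TRAV15D-1-DV6D-1, at 0.313 percentage points, and TRAV15-1-DV6-1, at 0.336 points, of 8 rows compared. These belong to duplicated V segments whose reads can be hard to tell apart, so their values are uncertain. For Trdv4 the nearest of 9 were TRAV13-4-DV7 at 14.6 points and TRAV21/DV12 at 15.2 points, distances that include the replicate 1 values of Trdv4 from 10 and 3 counts. Rows with 20 counts in replicate 2 alone did not enter, and some of these were nearer there. TRAV14-1, named after its values were seen, used Trdj2 in 3.19% of counts in EACBE-/- replicate 2 and 7.55% in EACBE+/+ replicate 2, beside 2.97% and 9.68% for Trdv4. Trdv2-2 used Trdj2 in 1.41% and 1.33% of counts in EACBE-/- and in 1.37% and 1.05% in EACBE+/+, and Trdv1 in 1.65% and 0.559% in EACBE-/- and 0% and 1.14% in EACBE+/+.

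Read by J column, the shares of both members differed between the 2 columns, though not beyond counting error in every library. Trdv5 made up 17.0% and 21.2% of Trdj1 counts in EACBE-/-, but 4.08% and 6.89% of Trdj2 counts. In EACBE+/+ it made up 12.7% and 12.8% of Trdj1 counts, but 0% and 1.80% of Trdj2 counts. In EACBE+/+ replicate 1, with 16 Trdj2 counts, these intervals overlapped (11.2 to 14.4% of Trdj1, 0 to 19.4% of Trdj2). Trdv4 made up 0.144% and 0.210% of Trdj1 counts in EACBE-/- and 0.116% and 0.101% in EACBE+/+. Of Trdj2 counts it made up 4.08% and 0.765% in EACBE-/- and 6.25% and 1.08% in EACBE+/+. The order of the members was thus the same in both columns in replicate 2, whereas in replicate 1 they had 2 Trdj2 counts each in EACBE-/-, and Trdv4 had 1 and Trdv5 had 0 in EACBE+/+.

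Within a member, genotype differences in Trdj2 use were small beside the counting error. Trdv4 averaged 11.5% ± 12.0 in EACBE-/- and 21.5% ± 16.7 in EACBE+/+ (SD, n = 2 each), and the groups overlapped (exact permutation test, two-sided, p = 0.667). Leaving out EACBE+/+ replicate 1, with its 3 Trdv4 counts, changed this difference of means to 1.81 points, against -10.02 with it. With the counts of both libraries summed, Trdv4 used Trdj2 in 4.50% of counts in EACBE-/- and 11.8% in EACBE+/+. Trdv5 averaged 0.241% ± 0.0436 in EACBE-/- and 0.0702% ± 0.0993 in EACBE+/+ (SD, n = 2 each). Its groups did not overlap (p = 0.333 in the exact permutation test, the smallest possible), and the intervals overlapped within both replicates.

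In the test of single V-J pairs, 26 pairs entered, and of the 4 pairs between the members only the pairs with Trdj1 did so, because those with Trdj2 had too few counts. No pair passed in edgeR (0 of 26, 0.0% of pairs) or in DESeq2 (0), and 3 had an unadjusted p below 0.05 in edgeR (11.5%), of which 1 was higher in EACBE-/- (3.85%), and 1 in DESeq2. The pair of Trdv5 with Trdj1 had 949 and 9899 counts in EACBE-/- and 220 and 3554 in EACBE+/+. Its log2 change was 0.58 (SE 0.18, unadjusted p = 0.0330, adjusted p = 0.286 in edgeR). The pair of Trdv4 with Trdj1 had 8 and 98 counts in EACBE-/- and 2 and 28 in EACBE+/+, with a log2 change of 0.74 (SE 0.79, adjusted p = 0.993 in edgeR). The difference of the Trdv5 row was thus measured almost wholly in Trdj1 joins. For Trdv4 the log2 change was 0.52 over the whole row, against the 0.74 in Trdj1 joins.

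The last question was whether the members also joined Traj segments. Of 163953 counts in the Tcra table of EACBE-/- replicate 2, 3 were Trdv4 and 24 were Trdv5. Of 172388 counts in that of EACBE+/+ replicate 2, 3 were Trdv4 and 11 were Trdv5. Only 1 library per genotype listed the rows, so there is no replicate check and no test. Trdv5 took 0.0146% of Tcra counts in EACBE-/- (interval 0.00984 to 0.0218%) and 0.00638% in EACBE+/+ (0.00356 to 0.0114%), and these intervals overlapped. Trdv4 took 0.00183% in EACBE-/- and 0.00174% in EACBE+/+.

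In these Tcra tables both members had fewer counts than Trdv1, Trdv2-1 and Trdv2-2. Trdv1 had 2015 Tcra counts in EACBE-/- and 2629 in EACBE+/+, Trdv2-2 had 967 and 702, and Trdv2-1 had 93 and 113. Per 100 counts in the Trd table of the same genotype and replicate number, Trdv5 had 0.242 Tcra counts in EACBE-/- and 0.309 in EACBE+/+. Trdv2-2 had 13.1 and 10.1, Trdv2-1 had 75.6 and 251, and Trdv1 had 113 and 83.1, in the same order of genotypes. Trdv4 had 2.97 in EACBE-/- and 9.68 in EACBE+/+, each from 3 Tcra counts. The EACBE+/+ value of Trdv4 was close to the 10.1 of Trdv2-2, and on this measure Trdv5 was lowest in both genotypes. The Trd and Tcra tables are separate libraries with their own depth, so these ratios compare V segments and are not joining rates.

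Trdv5 counts in Tcra lay mostly on the V side of the Traj array in EACBE-/-. Of 24 counts, 20 used Traj61 to Traj42 (83.3%, interval 64.1 to 93.3%), 3 used Traj41 to Traj22 and 1 used Traj21 to Traj1. In EACBE+/+, 6 of 11 used the first group (54.5%, interval 28.0 to 78.7%), 5 used the second and 0 used the last, for which the interval reached 25.9%. Over all rows of these tables the first group held 38.5% in EACBE-/- and 31.7% in EACBE+/+. The first-group intervals of Trdv5 overlapped between the genotypes, and the EACBE+/+ interval included the 31.7% of all rows. Trdv1 joined the first group in 81.1% and 84.6%, and Trdv2-2 in 81.8% and 85.0%, EACBE-/- before EACBE+/+ in each.

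**Figure D5:**
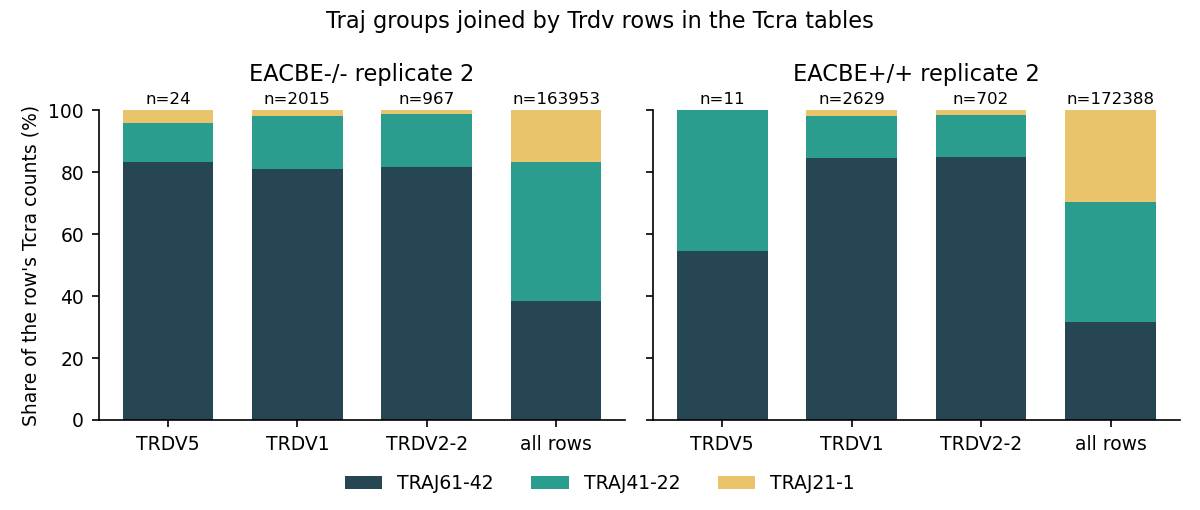
Share (%) of a row's counts in 3 position groups of Traj segments, from the V side (Traj61 to Traj42) to the C side (Traj21 to Traj1), for Trdv5, Trdv1, Trdv2-2 and all rows of the replicate 2 Tcra table of each genotype, with the number of counts above each bar. The first group holds 83.3% of 24 Trdv5 counts in EACBE-/- and 54.5% of 11 in EACBE+/+.

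The Traj segments most often joined by Trdv5 were Traj57 with 6 counts, Traj56 with 4 and Traj47 with 3 in EACBE-/-. In EACBE+/+ they were Traj58 with 3 counts and Traj40 and Traj32 with 2 each. Its counts were spread over 12 Traj segments in EACBE-/- and 7 in EACBE+/+, of 43 listed. Trdv4 had 1 count each with Traj57, Traj23 and Traj15 in EACBE-/-, and 1 each with Traj58, Traj45 and Traj27 in EACBE+/+.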

How the data were processed

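Thymus RNA was copied by 5′ RACE with template switching, per the labels' protocols. The authors deposited 1 table of whole-number counts per library, with V segments in rows and J segments in columns. How segments were assigned is not stated in the labels. If counts are reads, amplification adds to their spread.

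Groups came from sample titles. Of 104 V rows in any Trd table, the 22 listed in both replicates of a genotype were kept, and a row that a table lacks was set to 0. Tests used edgeR 4.0.16 (quasi-likelihood, R 4.3.3) on the counts, each table's total serving as library size without TMM scaling. Its filterByExpr left 21 rows and 26 pairs, and Benjamini-Hochberg adjustment ran over each fit. SE is the log2 change over the square root of F. Shares had exact permutation or sign-flip tests (Python 3.11.15), 95% Wilson intervals and a floor of 3 counts. DESeq2 1.42.0 was an alternative. The fits were tested on simulated counts: nearly all changed rows were recovered at a low spread and few at the spread fitted to these libraries. A count of 0 called rows thus says little. The simulation gave all rows the same spread, and changed only rows with many counts, by larger factors than Trdv5 showed. It therefore does not give the power for Trdv4, Trdv5 or any other named row.

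Named segments were the 4 members, Trdv1, Trdv2-2, the 2 rows with at least 20 counts per library most like each V member in Trdj2 use, and the 3 top Traj columns per row. TRAV14-1, TRAV14-2, TRAV12-3, TRAV13D-1 and Trdv2-1 were named after their values were seen. Members and lists were chosen with earlier results of these data known. Trb and chromatin libraries were not used.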

Additional observations from a re-analysis of the deposited data

How the results depend on the processing

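The count of V rows past the threshold was 0 under TMM factors, DESeq2, no filter, all V rows kept and each library left out (range 0 to 0). It was 1 (Trdv1, lower in EACBE-/-) with totals over the rows tested and 3 with the replicate number as a block, neither member among them. For V-J pairs it was 0 in the same settings except 1 with TMM factors (Trdv1 with Trdj1), and 2 with the block. Under the block the log2 change was 0.59 for Trdv5, with an edgeR adjusted p = 0.139, and 0.84 for Trdv4, with adjusted p = 0.539. Same-numbered libraries deviated together over 22 V rows (r = 0.90). The block lowered the common dispersion of the V row fit in edgeR from 0.779 to 0.0170. The 2 numbers differ in depth and in rows listed, which a block would take up. The labels do not tie same-numbered libraries together, so pairs are not established, and the fit without the block is not the only defensible one. The block left the Trdj2 difference at -0.10 points, with a sign-flip p of 0.5, the smallest that 2 differences allow. DESeq2, which changes both the size factors and the model, differed by a median of -0.12 per V row in log2 change, and Trdv5 was at 0.47 there. The adjusted p of Trdv5 ran from 0.0980 to 0.980 over 10 alternatives and that of Trdv4 from 0.539 to 0.998, all with a positive log2 change.

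The Trdj2 difference was -0.59 points with V rows weighted equally and -0.07 with Trdv4 left out of that mean, an alternative added after seeing the data. Within the dedicated Trdv rows the log2 ratio of mean shares was 0.99 for Trdv5, against 0.59 over the whole table, and 0.91 for Trdv4, against 0.47, also added after seeing the data. With each library left out it ran from 0.42 to 0.74 for Trdv5 and from 0.19 to 0.83 for Trdv4. The log2 ratio of Trdv4 to Trdv5 differed between genotypes by -0.40 to 0.25 with each library left out, and by 0.11 within Trdj1, so it has no stable direction. Within Trdj2 it could not be computed, because Trdv5 had 0 counts in 1 library. Trdv4 kept a higher Trdj2 use than Trdv5 with each library left out (10.7 to 20.9 points) and on the log-odds scale (4.30). Depth limits Trdv4 most, at 3 to 101 counts per library.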
